A study of Drosophila melanogaster with 6 samples.

Results

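The NK homeobox cluster region was taken as the 210 kb of chromosome arm 3R from 17190000 to 17400000 on FlyBase release 5, and its members were the GAGA factor (GAF) peaks whose midpoint fell there. There were 17 of them, among 1644 peaks on 3R and 11713 in the whole list. The peaks came from chromatin immunoprecipitation and sequencing (ChIP-seq) of Drosophila melanogaster embryos aged 8 to 16 h, cross-linked in 1.8% formaldehyde for 15 min. The libraries were 3 of GAF ChIP DNA, made with the rabbit polyclonal antibody KW3-Trl-D2, and 3 of input, the same kind of chromatin sequenced with no antibody step. All 6 came from 1 strain, written Y cn bw sp. Its alleles per the labels are y[1], cn[1], bw[1] and sp[1], also Gr22b[1] and Gr22d[1], further Rh6[1], GstD5[1], MstProx[1] and LysC[1], and the forms oc[R3.2], lab[R4.2] and CG33964[R4.2], so ChIP and input carry the same alleles. The authors deposited 1 peak list for all libraries, with a position and a score per peak. None of the values below therefore has a replicate error, no test of ChIP against input was possible, and the depth is unknown.

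GAF, the product of Trl, is a zinc finger protein that binds GA-rich DNA at promoters and at Polycomb response elements, and it is known for keeping chromatin accessible. The NK homeobox genes encode transcription factors, several of which set the identity of mesodermal cells, and lie near each other in the fly genome. Embryos of this age are forming body wall muscle, gut muscle and the dorsal vessel, which is the fly heart. Whole embryos were used, so a peak does not tell in which cells GAF was bound, and binding in fewer cells cannot be told apart from weaker binding in each.

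The 6 genes that give the cluster its name are tin, bap, lbl, lbe, C15 and slou. The gene tin encodes the homeodomain protein needed for the heart and the dorsal mesoderm, and bap acts after it in the gut muscle. The ladybird genes lbl and lbe give identity to a subset of heart cells and to a body wall muscle. The gene slou gives identity to a set of muscle founder cells, while C15 is best known from the tip of the leg. All 6 were matched by symbol in a RefSeq gene table of release 6, which was used for names and order only. From tin to slou it lists 12 protein-coding genes on 3R, in the order tin, bap, Ugt49B2, CG7907, CheB93a, CheB93b, lbl, lbe, Fancm, C15, sp3 and slou. The other 6 protein-coding genes thus lie among the cluster members. The gene before tin is mod(mdg4), and those after slou are CG15498 and InR, the insulin receptor gene. No annotation of release 5 was used here, so the placing of the cluster in this region rests on its definition, was not checked, and no peak is assigned to a gene.

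The 17 peaks fell into 4 strong ones, 6 weak ones and 7 in between. Strong means a score of 300 or more and weak means a score under 20, both limits being round numbers on the authors' own scale, which the sources used here do not explain. The strong peaks made up 23.5% of the region (95% Wilson interval 9.56 to 47.3, counting error only), against 31.1% of all 3R peaks. Weak peaks made up 35.3% (17.3 to 58.7), against 28.8% on 3R. Both shares of the arm lay within the intervals of the region, and with both edges 20 kb higher the strong share was 31.6%. The median score was 64.59 in the region, with quartiles of 13.74 and 238.54, against 71.2 on 3R with quartiles of 17.5 and 429. At or above 64.7, the median of the whole list, were 8 of the 17, or 47.1%, against 51.5% of the 3R peaks. With 17 peaks, such shares are known only coarsely.

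**Figure D1:**
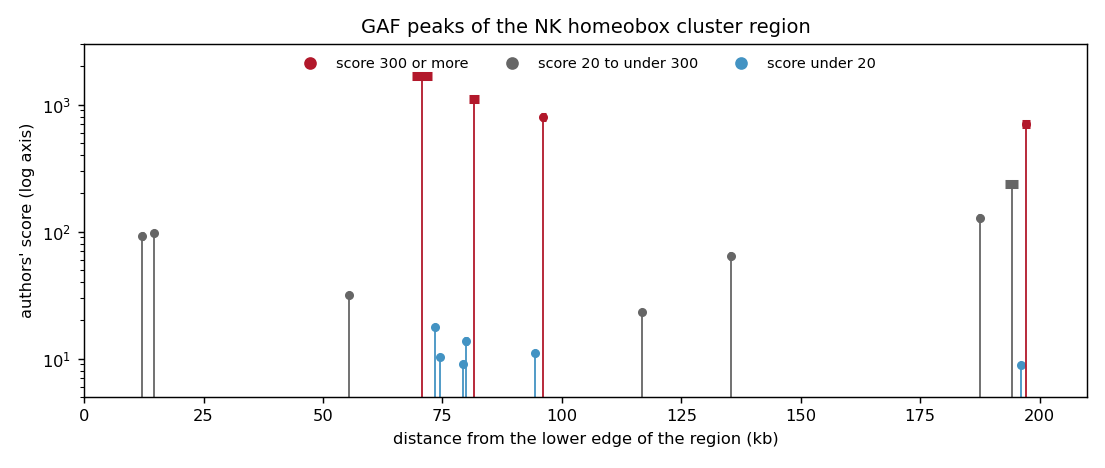
Each GAF peak of the region is drawn at its distance in kb from the lower edge of the region, with the authors' score on a log axis. Horizontal bars give peak widths, red marks scores of 300 or more, blue marks scores under 20 and grey the rest; each of the 6 blue peaks lies within 1500 bp of a red one.

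The strongest peak, 3R:17258530-17262827, scored 1678.71 and was also the widest of the region at 4298 bp. It ranked 9 of 1644 on 3R by score, 23 by width, and 50 in the whole list by score. Among 131 other stretches of 210 kb laid end to end along 3R, only 7 held a peak of higher score. On 3R 5 other peaks had a width within 10% of it, and their median score was 1717.35, with 2 of them below its score. The second, 3R:17270634-17272633, scored 1097.39, ranked 102 on 3R and was 2000 bp wide. Between the ends of these 2 strong peaks lay less than 10 kb, with 4 weak peaks in it.

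The third strong peak lay in the same 30 kb as that pair, after a gap of 11.626 kb and a weak peak, while the fourth stood apart. At 3R:17285563-17286637 the score was 798.14, which ranked 207 on 3R, and the width was 1075 bp. At 3R:17386344-17388058 the score was 701.34, which ranked 249, and the width was 1715 bp. All 4 lay above the upper quartile of the 3R scores, 429. Below them the scores of the region broke off. No peak scored between 238.54 and 701.34, a range that held 19.5% of the 3R peaks. The limits of that range were taken from the region itself, so the empty range is a description of it. It also depends on the edges, since the nearest peaks outside them scored 629.6 and 419.49, both within that range. Each comes into the region when the edges are moved 20 kb towards it.

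Every strong peak of the region had a weak peak close by. A weak peak lay within 1500 bp of 4 of 4 strong peaks, edge to edge, while 25.4% of the 512 strong peaks on 3R had one. For the strongest peak it was 3R:17263209-17263746 with a score of 17.85, 381 bp after it. For the second strong peak it was 3R:17269544-17270300, with a score of 13.74, 333 bp before it. The third had 3R:17284260-17284523, scoring 11.11, 1039 bp before it, and the fourth had 3R:17385908-17386147, scoring 8.96, 196 bp before it. With 1000 bp as the limit 3 of 4 strong peaks of the region had such a neighbour, against 22.3% on 3R. The trait depends on the edges, since the nearest strong peaks outside the region had no weak peak within 1500 bp. Each comes into the region when the edges are moved 20 kb towards it. For 3R:17174453-17175616 the nearest peak of any score lay 26.4 kb away. For 3R:17407041-17408664 a peak scoring 48.68 lay 239 bp after it, and the next gap was 5671 bp.

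The converse held as well, since all 6 weak peaks lay within 1500 bp of a strong one, against 34.0% of the 474 weak peaks on 3R. Besides the 4 just named they were 3R:17264270-17264565, scoring 10.33, and 3R:17269087-17269437, scoring 9.14. The former lay 1442 bp after the strongest peak and the latter 1196 bp before the second. No weak peak of the region stood alone by these limits, but this depends on both the distance and the score. With 1000 bp as the limit, the weak peaks at 1442, 1196 and 1039 bp from a strong one would not count. Just above the score limit of 20, the peaks next in score, at 23.09 and 31.41, lay 19.9 and 12.9 kb from the nearest strong peak. The distance of 1500 bp was chosen after these values were seen, the counts of 4 and 6 describe the same neighbourhoods, and the 3R shares include the region. Whether a weak neighbour is a separate site or an edge of the same bound stretch was not tested.

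The peaks of intermediate score mostly lay apart from the strong ones, at a share close to that of the arm. Of the 7, only 1 had a strong peak within 1500 bp, or 14.3%, against 15.2% of the 658 such peaks on 3R. Near the lower edge were 3R:17201971-17202437 with a score of 91.59 and a width of 467 bp, and 3R:17204395-17204835 with 97.37 and 441 bp. They were 1957 bp apart and scored much alike, and the nearest strong peak to either lay outside the region. Their ranks on 3R were 762 and 747, near the middle of the arm's list. Further on were 3 single peaks, each more than 10 kb from any other. They were 3R:17245238-17245594 with a score of 31.41, 3R:17306539-17306846 with 23.09 and 3R:17324996-17325620 with 64.59. Their widths, 357, 308 and 625 bp, lay on both sides of the 3R median of 544.5 bp. The last narrow one, 3R:17377182-17377643, scored 127.41 and was 462 bp wide.

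The peak at 3R:17382722-17385489 had a low score for its width. Its width of 2768 bp was second in the region and ranked 68 on 3R, but its score of 238.54 ranked only 571. Of the 36 other 3R peaks with a width within 10% of it, none scored lower, and their scores ran from 316.39 to 1675.33 with a median of 1114.95. With widths within 20%, 1 of 80 scored lower, at 102.94. Peaks of 2500 bp or more made up 5.41% of 3R and numbered 2 in the region. On the arm only 2.25% of them, 2 of 89, scored under 300, and this was one of those. It ended 854 bp before the fourth strong peak, with a weak peak of 240 bp in the space between. The gaps on either side of that weak peak were 418 and 196 bp, so little unlisted sequence lay among the 3 peaks. The comparison by width was chosen after the values were seen.

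Across the region wider peaks scored higher, with a Spearman rho of 0.826 over 17 peaks, against 0.863 over the 1644 of 3R. Width and score come from the same peak calls, so this is a description of the calls. The median width was 467 bp (quartiles 351 and 1075), against 544.5 bp on 3R (333 and 1001). With both edges 20 kb higher the median of the region was 655 bp, so the order of the 2 medians depends on the edges.

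**Figure D2:**
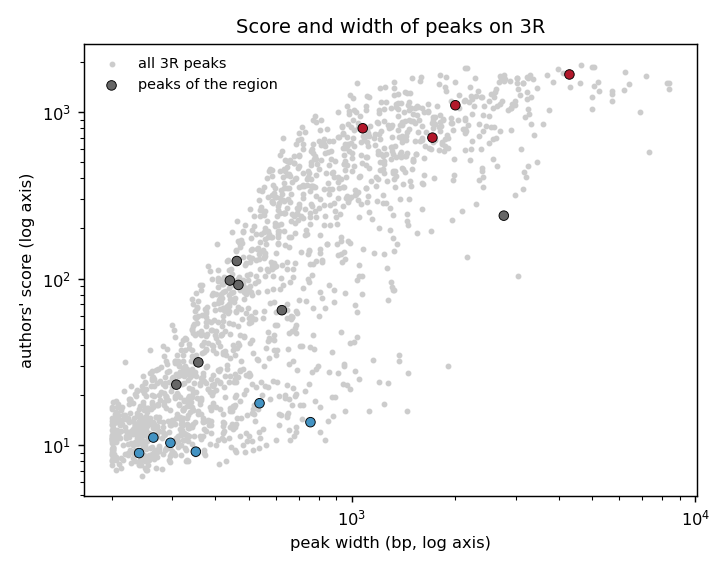
Score against width for all 1644 peaks of 3R in light grey and the 17 peaks of the region in colour, both axes on a log scale, with red for scores of 300 or more, blue for scores under 20 and dark grey between. The grey point of the region at 2768 bp and a score of 238.54 lies below the 36 other 3R peaks with a width within 10% of it.

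By number of peaks the region was above the middle of 3R without standing at its top. It held 17 peaks, against a median of 12 in the 131 other stretches (quartiles 8 and 15, range 1 to 30). Of these, 23 held more, 3 held as many and 105 held fewer, so that 19.8% held as many or more. Peaks covered 16.962 kb, or 8.08% of the region, against 5.03% of the arm from its first to its last peak. By covered length 17 stretches lay higher, and the median was 9.46 kb with quartiles of 5.80 and 13.3. The strong peaks alone covered 9.09 kb, which is 53.6% of the length under peaks. By number of strong peaks the region was near the middle, with 4 against a median of 3, and 45 stretches held more.

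**Figure D3:**
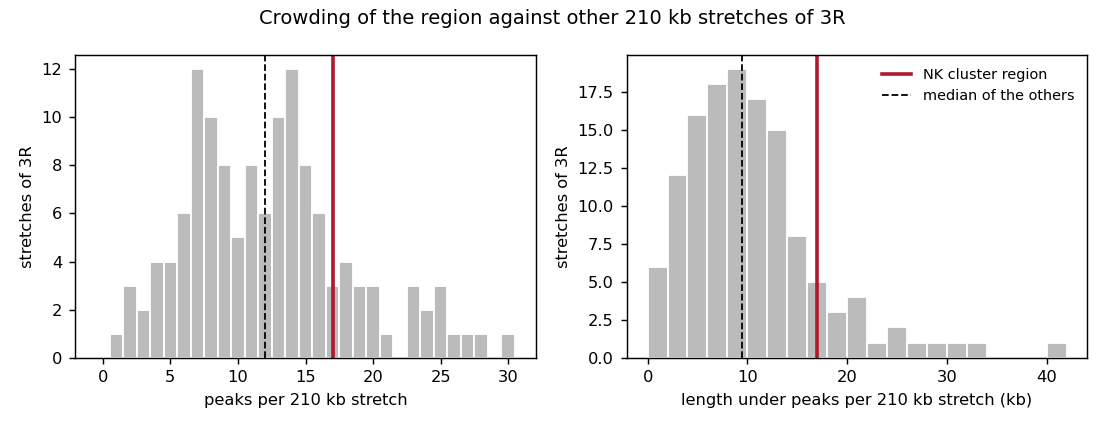
Number of peaks (left) and length under peaks in kb (right) in 210 kb stretches of 3R, as histograms of 131 stretches with the region as a red line and the median of the others as a dashed line. The region lies at 17 peaks and 16.962 kb, to the right of medians of 12 and 9.46 kb but inside the spread.

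The neighbouring stretches differed from the region in both directions. On the side of lower coordinates, from 16980000 to 17190000, there were 15 peaks, 9 of them strong, but the highest scored 743.64. On the other side, from 17400000 to 17610000, there were 30 peaks with 10 strong ones, a top score of 1587.78 and 32.4 kb under peaks. By number of peaks, no stretch of the 131 lay above that one. The region therefore had fewer strong peaks than either neighbour and a higher top score than both.

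The edges of the region fell in gaps. The last peaks before the lower edge were 3R:17122628-17123437 with a score of 516.39, ending 66.6 kb before it, and 3R:17174453-17175616 with 629.6, ending 14.4 kb before it. Beyond the upper edge were 3R:17407041-17408664 with 419.49 and 3R:17408904-17409574 with 48.68, starting 7.04 and 8.90 kb after it. The gap across the lower edge was 26.4 kb and that across the upper edge 18.982 kb. No peak overlapped either edge.

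Gaps between peaks of the region varied widely, as they did along the arm. The 16 gaps ranged from 106 bp to 51.561 kb with a median of 3239 bp, against 5343 bp on 3R. That order of the medians turned in 2 settings: with both edges 20 kb lower the median of the region was 8073.5 bp, and with peaks under 500 bp apart joined it was 11626 bp, against 9961 bp on 3R joined in the same way. Of the 16 gaps, 5 were under 500 bp, or 31.2%, against 19.8% of the 3R gaps. Another 6, or 37.5%, were 10 kb or more, against 39.8% on 3R, so long gaps were about as common as on the arm. The widest gap, 51.561 kb, lay between the peaks ending at 17325620 and starting at 17377182. On 3R 8.83% of the gaps were as wide or wider. The next was 40.402 kb, after the pair near the lower edge, from 17204835 to 17245238, and the third was 19.901 kb.

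**Figure D4:**
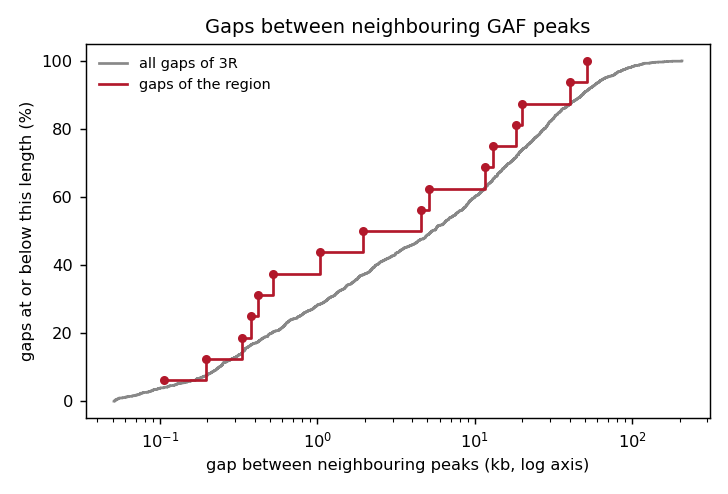
Cumulative share in percent of gaps between neighbouring peaks, by gap length in kb on a log axis, for the 16 gaps of the region (red, with a point for each gap) and the 1643 gaps of 3R (grey). The red line runs at or above the grey one over most of its length, with 5 gaps under 500 bp at the left and the widest of 51.561 kb at the right.

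With breaks at gaps of 10 kb or more, a limit chosen after the gaps were seen, the 17 peaks formed 7 groups. The largest had 6 peaks in 14.1 kb, holding the first and second strong peaks, and peaks covered 58.4% of it. Another had 4 peaks in 10.9 kb at the upper end, covered to 47.7%. There were also 2 pairs and 3 single peaks. The tightest neighbours of the region were 106 bp apart, at 3R:17269087-17269437 and 3R:17269544-17270300, both weak. The fullest 30 kb held 8 peaks, from 17258530 to 17286637, with 3 of the 4 strong ones and 56.5% of the length under peaks. Of windows of that length begun at each 3R peak, 10.1% held as many or more, and the fullest held 18. In all, 8 of the 17 peaks had a neighbour under 500 bp away, or 47.1% (26.2 to 69.0), against 32.5% on 3R. Joining such neighbours left 12 peaks, and 38 of 131 stretches then held more than the region, against 23 without joining.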

How the data were processed

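The authors deposited 1 peak list for the series, with coordinates on FlyBase release 5 and peaks called with MACS, per the file headers and its source column. MACS2, BWA and CASAVA (1.7.0.2, 1.7.0.3) and the genome build BDGP5 are named in the submitters' processing notes. The deposited score is the authors' value per peak; how it is scaled, the threshold for calling and the merging of the 6 libraries are not stated in those sources, so it served only to describe and rank peaks within the list. Starts are printed counted from 1, since the smallest listed start is 0. Gaps are the bases between the end of a peak and the start of the next.

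The region and what is described were chosen with earlier results of these data known. Every peak of the region is named. Stretches of 210 kb were laid end to end both ways from the lower edge of the region, within the first and last peak of 3R. No test was run, because peaks of 1 list are not replicates; Wilson and other binomial intervals, at 95%, cover counting error only. The stretch counts were checked on simulated lists with more peaks planted than any 3R stretch of the data held. That was a check of the code only, and it says nothing about a rank inside the spread. The planned search for GAGAG in promoters and the sequences of peaks needed a genome of release 5 or promoter sequences, not used here. Values were computed in Python 3.11.15 with pandas 2.3.3, numpy 2.4.6 and scipy 1.17.1, and plotted with matplotlib 3.10.9.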

Additional observations from a re-analysis of the deposited data

How the results depend on the processing

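Over 10 results, 47 values under alternatives were computed, and 36 stayed within 1.5 times of a count or within the 95% binomial interval of the value. Alternatives for joining under 2000 bp, for weak neighbours, for like widths, for the fullest window and for the strong share with moved edges were chosen after the data were examined. Counting only peaks with at least the list's median score, the region held 8 peaks, their median score was 469.94 and their median width 1395 bp, by construction, and 28.2% of the other stretches held more. That share was 17.6% for all peaks. It was 29.0% with peaks under 500 bp apart joined and 28.2% with those under 2000 bp joined, which left 9 peaks. With the edges 20 kb lower it was 25.2%, and 22.1% of the stretches had more length under peaks, against 13.0% as defined; with the edges 20 kb higher these were 12.3% and 8.46%. The edges therefore affect the ranks, and the cause was not tested. Some values within their wide intervals still crossed the value of 3R. The median gap, 3239 bp, was 8073.5 bp with the edges 20 kb lower and 11626 bp with joining under 500 bp (3R 9961 bp). Among the higher-scoring peaks it was 7806 bp and stayed below that of 3R, 17851 bp. The median width, 467 bp, was 655 bp with the edges 20 kb higher, and the strong share, 23.5%, was then 31.6%. Among the higher-scoring peaks the median width of 3R was 953 bp, below that of the region. The share of windows as full as the fullest of the region was 13.7% at 20 kb and 14.7% at 50 kb, against 10.1% at 30 kb. Strong peaks with a weak neighbour were 3 of 4 or 4 of 4 under the 7 settings tried, except for 5 of 5 with strong taken from 200. The 3R shares under these settings ran from 17.4% to 30.1%, and none of the settings moved the edges. No paired analysis was possible because 1 combined list serves all 6 libraries, which also kept any replicate from being left out. The search for GAGAG in promoters was not run. With the depth unknown, no lower limit of detection is given.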
